A study of Mus musculus with 8 samples.

Results

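The MHC class II genes of mouse colon epithelium were followed through 7 members: Ciita, Cd74, H2-Aa, H2-Ab1, H2-Eb1, H2-DMa and H2-DMb1. They were chosen by symbol from the 54141 gene identifiers of the table, and all 7 were matched. The choice was made with the wild-type and mutant levels and the covariation across libraries already known, so both are given as a description of these genes and carry no test. The libraries were made from total RNA of epithelial cells that EDTA had released from the distal colon and that had passed a cell strainer. WT libraries (n = 4) came from wild-type mice and Degs2_KO libraries (n = 4) from mice homozygous for a mutation of Degs2, all on the c57bl6/j background. The product of Degs2 is an enzyme of sphingolipid synthesis that makes phytoceramides. The sources used here do not describe the allele, the age of the mice, or whether each library is a separate animal, so a p-value measures the spread between these samples, which may be technical.

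MHC class II molecules present peptides from the endosomal pathway to CD4 T cells. They are made constitutively by dendritic cells, macrophages and B cells, and epithelial cells of the intestine make them when interferon-gamma induces the transactivator Ciita. Ciita binds no DNA itself and acts through a complex of RFX, CREB and NF-Y proteins on short conserved promoter elements called the X and Y boxes, and it drives the classical chains, the invariant chain and the DM chaperone together.

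Promoter sequences are shown first because the members moved together and because the known elements can be read in them. RefSeq windows on GRCm38.p6, running from 250 bases before to 50 bases after the transcription start, were held for 4 of the 7 members: H2-Aa, H2-Eb1, H2-DMb1 and H2-DMa. H2-Ab1, Cd74 and Ciita are only named. Sequences are written 5′ to 3′ on the transcribed strand. Capitals mark CTNGNAAC, letters of the X box, and TGATTGG, letters of the Y box. For H2-Aa and H2-Eb1 the 150 bases before the start are given, at chr17:34287824-34287973 on the minus strand and chr17:34305717-34305866 on the plus strand. For H2-DMb1 the 30 bases at chr17:34153094-34153123 are given. H2-Ob, a class II gene that was hardly detected, is set beside them with 70 bases at chr17:34238795-34238864.
H2-Aa: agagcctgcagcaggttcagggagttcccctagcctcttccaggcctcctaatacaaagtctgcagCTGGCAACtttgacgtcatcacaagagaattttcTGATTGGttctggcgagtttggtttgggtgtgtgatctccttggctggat
H2-Eb1: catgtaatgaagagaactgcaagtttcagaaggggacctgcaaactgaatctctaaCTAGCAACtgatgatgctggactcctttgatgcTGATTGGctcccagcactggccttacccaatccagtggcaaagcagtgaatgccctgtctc
H2-DMb1: CTAGTAACtgatgatgctaggctgattcac
H2-Ob: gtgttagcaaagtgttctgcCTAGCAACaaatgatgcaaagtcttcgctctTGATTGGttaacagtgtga

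The letters, and the spacing between them, were chosen after these promoters had been read, and both strands were searched. CTNGNAAC was found in 4321 of 32851 promoter windows (13.2%) and TGATTGG in 2568 (7.82%). The letters of X followed by those of Y within 40 bases on 1 strand were found in 31 windows (0.0944%). With the transcribed strand and the 23 to 26 bases seen in the genes shown, 6 windows (0.0183%) remained, those of H2-Aa, H2-Eb1, H2-DMb1, H2-Ob, BC051142 and 1700048F04Rik. The spacing was 26 bases in H2-Aa and H2-DMb1, 25 in H2-Eb1 and 23 in H2-Ob. Neither set of letters was found in the 2 windows of H2-DMa. The genes shown set that spacing, so their place among the 6 is no finding. A match describes the sequence only, and H2-Ob shows that these letters also stood before a gene at 0 to 0.193 CPM (counts scaled to the library's TMM-normalized total) in the 8 libraries.

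Depth did not separate the genotypes. Totals of the deposited scaled counts were 41622927 to 44606092 per library, and their smallest steps correspond to 32.8 to 49.8 M (mega) fragments. Degs2 itself was 122 ± 20.1 CPM in WT and 58.2 ± 9.08 in Degs2_KO (SD, n = 4 each), with no overlap between the genotypes. Across 16132 genes tested with edgeR's quasi-likelihood test, 0 (0.00%) passed an adjusted p of 0.05, while 183 had an unadjusted p under 0.05, 53 of them higher in Degs2_KO (0.329%) and 130 lower (0.806%). DESeq2 called 2 genes, Degs2 and Dlk1, neither of them a class II gene, and limma-voom called 0. Epcam, an adhesion protein of epithelial cells, was at 1704 to 2006 CPM.

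Ciita, the transactivator, lies on chr16:10480059-10528418. Its CPM was 2.65, 1.095, 0.883 and 2.98 in WT replicates 1 to 4 and 7.92, 3.91, 4.87 and 1.09 in Degs2_KO replicates 1 to 4. Degs2_KO replicates 1 to 3 lay above every WT library, whereas replicate 4 lay among the lowest, so the genotypes overlapped. The means were 1.903 ± 1.07 and 4.45 ± 2.82 CPM (SD, n = 4), and the log2 difference, mutant minus wild type, was 1.22 ± 0.59 (SE). Exons of Ciita overlap those of Dexi on the opposite strand, and it is not known whether counting used strand. Dexi was at 9.97 to 11.4 CPM with a log2 difference of 0.08 ± 0.09 (SE). Degs2_KO replicates 1 to 3 lay above every WT library in Dexi too. Its highest library exceeded its lowest 1.14-fold, against 8.97-fold for Ciita, and its r with the mean of the members was 0.447. Whether fragments of Dexi entered the counts of Ciita was not tested.

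Cd74, the invariant chain, occupies the peptide groove of new class II molecules and guides them to the endosome; it lies on chr18:60803848-60812652. Its CPM was 39.3, 14.2, 10.8 and 93.3 in the 4 WT libraries and 166, 114, 128 and 24.7 in the 4 Degs2_KO libraries. WT replicate 4 stood close to the mutant libraries and Degs2_KO replicate 4 stood among the WT libraries. The means were 39.4 ± 38.1 and 108 ± 59.7 CPM (SD, n = 4), a log2 difference of 1.46 ± 0.75 (SE). Without WT replicate 4 that difference was 2.33.

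H2-Aa encodes the alpha chain of the classical molecule I-A and lies at chr17:34282744-34287823. Its CPM was 6.72, 3.83, 3.58 and 24.8 in WT and 36.5, 19.2, 23.9 and 5.15 in Degs2_KO. WT replicate 4 exceeded 3 of the 4 mutant libraries. The means were 9.74 ± 10.2 and 21.2 ± 12.9 CPM (SD, n = 4), a log2 difference of 1.12 ± 0.73 (SE), which became 2.16 without WT replicate 4 and 0.74 without Degs2_KO replicate 1. H2-Ab1, its beta partner at chr17:34257689-34269419, had 12.3, 6.07, 5.18 and 27.4 CPM in WT and 44.2, 27.3, 30.8 and 7.80 in Degs2_KO. Here WT replicate 4 was level with Degs2_KO replicate 2, and the remaining order was that of H2-Aa. The means were 12.7 ± 10.3 and 27.5 ± 15.01 CPM (SD, n = 4), a log2 difference of 1.11 ± 0.62 (SE), or 1.81 without WT replicate 4.

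H2-Eb1 encodes the beta chain of I-E and lies at chr17:34305867-34316674. Mice of the b haplotype, which C57BL/6 carry, lack the alpha partner of this chain, and its pseudogene H2-Ea-ps was listed at 0 in all 8 libraries. H2-Eb1 had 5.30, 3.07, 2.48 and 8.71 CPM in WT and 23.2, 13.6, 15.5 and 3.18 in Degs2_KO. Degs2_KO replicates 1 to 3 were all above WT replicate 4, and Degs2_KO replicate 4 was near the lowest WT libraries. The means were 4.89 ± 2.82 and 13.9 ± 8.24 CPM (SD, n = 4), a log2 difference of 1.502 ± 0.58 (SE).

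H2-DMa and H2-DMb1 encode the chains of the DM chaperone, which removes the remnant of the invariant chain and helps stable peptides to bind. H2-DMa, at chr17:34119541-34139101, had 4.48, 1.83, 1.98 and 4.37 CPM in WT and 9.03, 5.88, 8.58 and 2.11 in Degs2_KO. WT replicates 1 and 4 were level in this gene. The means were 3.17 ± 1.45 and 6.402 ± 3.18 CPM (SD, n = 4), a log2 difference of 1.02 ± 0.47 (SE). H2-DMb1, at chr17:34153072-34160230, had 3.66, 2.05, 2.58 and 6.13 CPM in WT and 10.6, 7.19, 10.3 and 3.04 in Degs2_KO. Both chains had the same 3 mutant libraries above every WT library. The means of H2-DMb1 were 3.61 ± 1.81 and 7.77 ± 3.51 CPM (SD, n = 4), a log2 difference of 1.11 ± 0.44 (SE). H2-DMa overlaps exons of Brd2 on the opposite strand, and Brd2 was at 205 to 251 CPM with a log2 difference of 0.01 ± 0.08. H2-DMb1 has a near-identical neighbour, H2-DMb2, to which its reads may have been split, and which held no more than 0.286 CPM.

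All 7 members had a log2 difference above 0, as did 47.4% of all genes tested. Their median log2 difference was 1.12 (range 1.02 to 1.502), against -0.01 over all genes. A log2 difference above 0.5 was found in 0.948% of all genes. For 0 of 7 members did the genotypes separate without overlap, a pattern with every mutant library higher that 0.484% of all genes showed; every mutant library was lower in 0.558%. These shares are printed as background only, since the contrast was used in choosing the members. In a bulk sample, more cells with class II transcripts and more transcript per cell cannot be told apart.

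**Figure D1:**
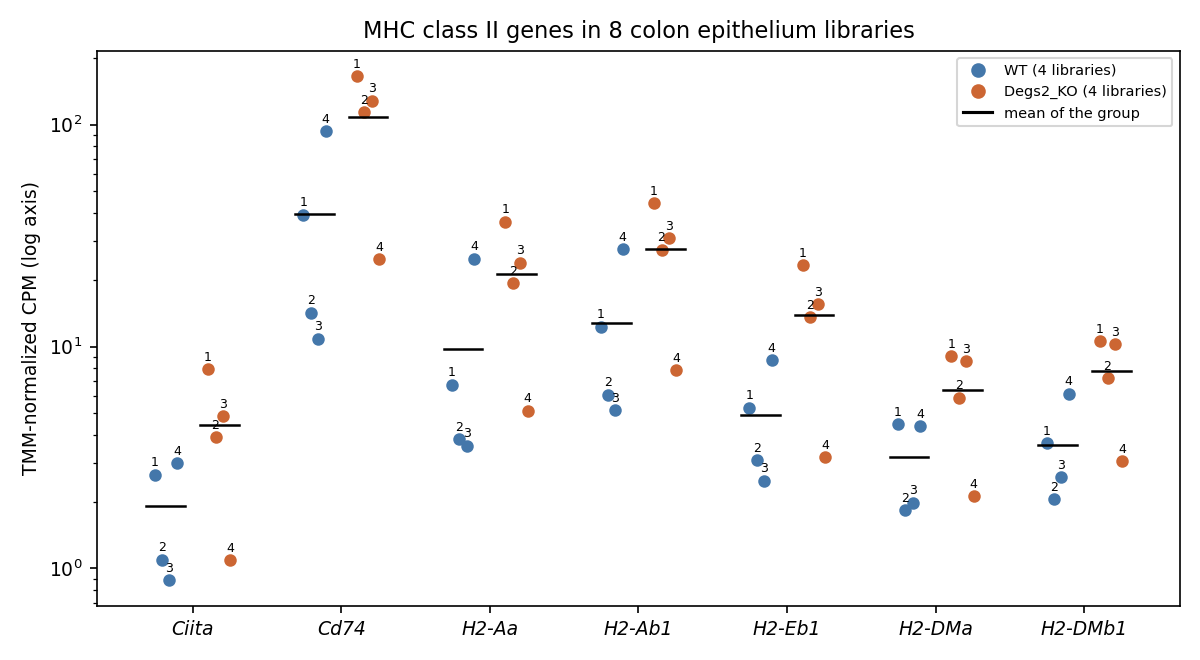
CPM of each of the 7 class II members on a log axis in the 4 WT and 4 Degs2_KO libraries, 1 point per library. Degs2_KO replicate 1 is the highest of 8 for all 7 genes, Degs2_KO replicate 4 is the lowest mutant library for all 7, and WT replicate 4 is the highest WT library for 6.

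The order of the libraries was nearly the same for each member. Each member's log2 CPM was centred on its mean over 8 libraries and averaged over the members. WT replicate 3 was at -1.45, WT replicate 2 at -1.32, Degs2_KO replicate 4 at -0.98, WT replicate 1 at -0.27, WT replicate 4 at 0.57, Degs2_KO replicate 2 at 0.80, Degs2_KO replicate 3 at 1.11 and Degs2_KO replicate 1 at 1.53. Degs2_KO replicate 1 ranked highest for all 7 genes. The lowest rank was always held by WT replicate 2 or WT replicate 3. The highest library exceeded the lowest 15.3-fold for Cd74, 10.2-fold for H2-Aa and 8.97-fold for Ciita, but 4.93-fold for H2-DMa and 5.17-fold for H2-DMb1.

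The 7 genes rose and fell together over the libraries. Over the 21 pairs of members, Pearson's r of log2 CPM was 0.914 to 0.994 (median 0.968) across 8 libraries, and Spearman's rho was at least 0.833. The closest pair was Cd74 with H2-Ab1 and the least close was H2-Aa with H2-DMa. After each genotype was centred on its own mean, r remained 0.882 to 0.994 (median 0.956), so libraries of the same genotype also differed in all members at once. No test is attached, because covariation was part of how the members were chosen.

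**Figure D2:**
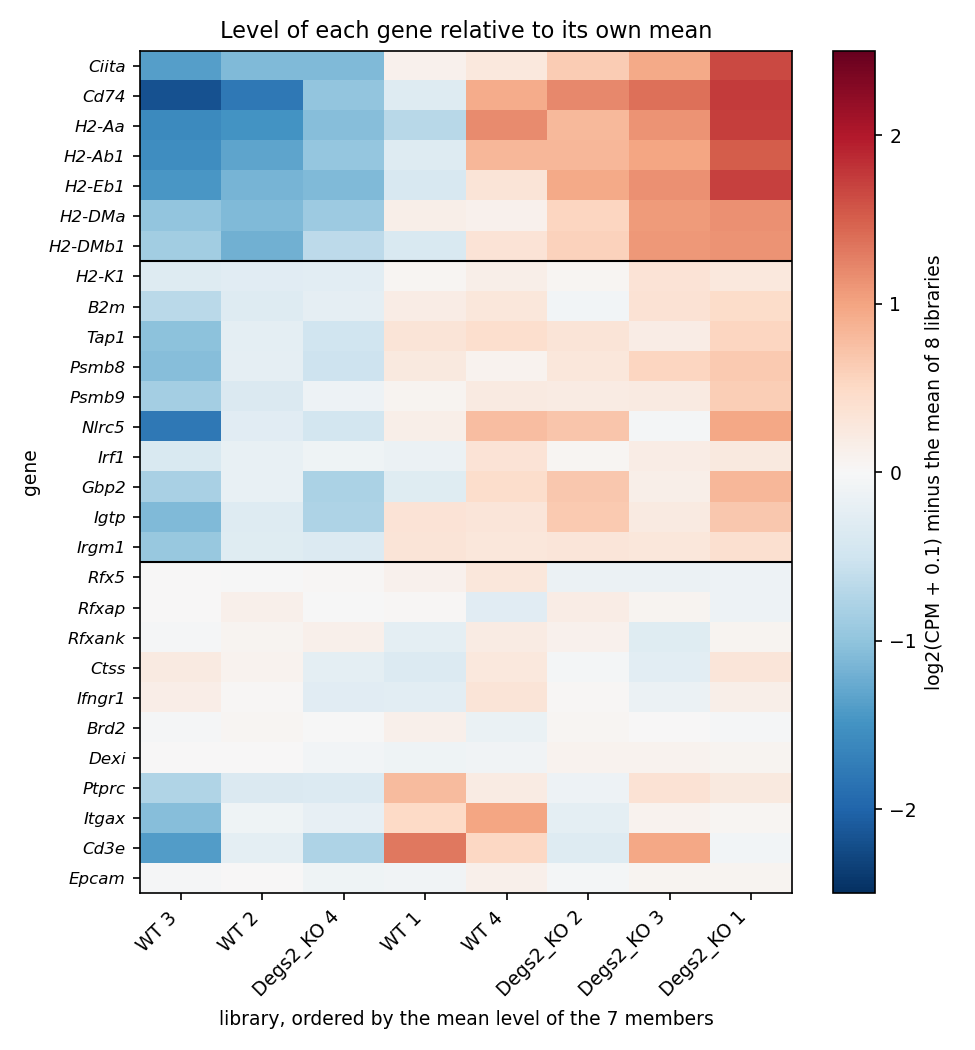
Log2 of CPM plus 0.1 centred on each gene's mean over 8 libraries, with libraries as columns and the 7 members, 10 class I and interferon genes and other named genes as rows separated by lines. Libraries are ordered by the mean level of the members, from WT replicate 3 to Degs2_KO replicate 1, and H2-K1, B2m and Psmb9 are also lower at the left and higher at the right, over a smaller range.

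Per kilobase of exon the members differed widely in level. Averaged over all 8 libraries, Cd74 was at 43.9 ± 35.2 CPM per kb (SD, n = 8), followed by H2-Ab1 at 7.83, H2-Eb1 at 4.82, H2-Aa at 4.07, H2-DMb1 at 3.38, H2-DMa at 1.39 and Ciita at 0.333. The order of neighbours held within all 8 libraries for 4 of the 6 neighbouring pairs. H2-Eb1 exceeded H2-Aa in 7 of 8 libraries, and H2-Aa exceeded H2-DMb1 in 4 of 8, so that pair had no stable order. Over libraries the ranges of all neighbours overlapped.

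Ratios between members, per kilobase, moved less than the levels. The alpha to beta ratio of I-A, H2-Aa over H2-Ab1, stayed between 0.370 and 0.613, and H2-DMa over H2-DMb1 between 0.339 and 0.597. H2-Eb1 over H2-Ab1 was 0.420 to 0.694, lowest in WT replicate 4. Cd74 over Ciita was lowest at 69.7 (WT replicate 3) and highest at 178 (WT replicate 4). Exon lengths were the union over annotated transcripts, which also holds noncoding isoforms, so the ratios depend on that choice while their spread does not.

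Other class II genes were hardly detected. H2-DMb2, H2-Oa, H2-Ob and H2-Eb2 were under 1 CPM in every library, with highest values of 0.286, 0.095, 0.193 and 0.072 CPM, and 0 of the 5 genes measured on this list reached the filter for testing. H2-Oa and H2-Ob encode the DO chains that restrain DM, mainly in B cells and thymic epithelium. A listed 0 allows up to 3 fragments in that library.

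The genes for the proteins through which Ciita reaches DNA varied little beside the members. Of 12 genes of class II transcription, 6 were higher and 6 lower in mean Degs2_KO (median log2 difference 0.01), 0 passed the test, and 0 had an r above 0.7 with the members. Rfx5 and Rfxap, subunits of the RFX complex, had log2 differences of -0.20 ± 0.10 and 0.05 ± 0.12 (SE). Rfxank, the remaining subunit, had -0.00 ± 0.13. Nfyb, a subunit of NF-Y, was at 26.5 to 30.6 CPM in WT and 30.8 to 31.9 in Degs2_KO, every mutant library above every WT library. Its log2 difference was 0.15 ± 0.07 and its r with the members 0.600, the highest of the list. Nfyc, another NF-Y subunit, had a difference of 0.02 ± 0.06 and an r of 0.546. The coactivators Smarca4, Ep300 and Crebbp were the most abundant of the list, and Smarca4 was at 174 to 217 CPM in the 8 libraries.

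Genes of peptide processing and class II trafficking were mostly level between the genotype means, though some varied over single libraries. Of 14 tested, 9 were higher and 5 lower (median 0.03) and 0 passed. 1 of 14, Ctsb, had an r above 0.7 with the members, at 0.796. Ctss, the protease that trims the invariant chain, was at 196 to 307 CPM with a log2 difference of -0.12 ± 0.17 (SE). Ctsb, Ctsd and Cd63 were abundant, with differences of 0.03, 0.02 and 0.11. Marchf1, a ligase that removes class II from the surface, was low at 0.120 to 0.501 CPM, a 4.16-fold range. Of the costimulation list, 0 of 4 tested genes were higher in mean and 0 passed, and Cd80, Cd86, Cd40 and Pdcd1lg2 stayed under 1 CPM.

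Class I presentation and interferon targets varied with the members. Of 17 class I genes, 16 were higher in mean Degs2_KO (median log2 difference 0.17) and 0 passed the test. Of 19 interferon-gamma targets, 17 were higher (median 0.26) and 0 passed. Over the 8 libraries, r with the mean of the members was above 0.7 for 14 of the 17 class I genes and 14 of the 19 interferon targets, against 2.53% of 11086 ranked genes. These correlations share the 8 libraries and carry no test.

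H2-K1, a classical class I heavy chain, was at 774, 612, 598 and 823 CPM in WT and 893, 768, 938 and 621 in Degs2_KO. It was low in WT replicates 2 and 3 and Degs2_KO replicate 4, as the members were, but highest in Degs2_KO replicate 3, and WT replicates 1 and 4 exceeded Degs2_KO replicate 2. Its r with the members was 0.950, the highest of the ranked genes, and its log2 difference was 0.20 ± 0.16 (SE). B2m, the class I light chain, was at 306 to 675 CPM and Psmb8, an immunoproteasome subunit, at 15.4 to 50.7 CPM, with log2 differences of 0.25 and 0.46. Nlrc5, the transactivator of class I genes and a relative of Ciita, was at 11.8, 8.74, 3.03 and 18.4 CPM in WT and 20.97, 17.3, 10.3 and 7.73 in Degs2_KO. Its r with the members was 0.803 and its difference 0.43 ± 0.50.

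Among interferon-gamma targets, the GTPases Irgm1 and Igtp, which act on vacuoles of intracellular microbes, had log2 differences of 0.26 ± 0.28 and 0.39 ± 0.38 (SE). Tgtp1 and Cxcl9, a chemokine for activated T cells, had 1.06 ± 0.63 and 1.02 ± 0.51. Cxcl9 stayed between 0.215 and 1.902 CPM. Of 12 genes of interferon-gamma signalling, 5 were higher and 7 lower and 0 passed. Irf1, a transcription factor that carries the signal to Ciita, had a difference of 0.16 ± 0.16, and its r with the members was 0.878. The receptor chain Ifngr1 had -0.14 ± 0.14. Ifng itself, which lymphocytes make, was at 0 to 0.120 CPM.

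Among the 10 genes most like the members over 8 libraries were H2-K1, H2-T22, Clic1, Psmb9, Slc25a5, Evx1, Ctnnal1, Coa5 and Capza2, with r from 0.950 down to 0.895. H2-T22 is a nonclassical class I gene and Psmb9 an immunoproteasome subunit. Their ranges were narrow beside those of the members: Psmb9 ran from 9.43 to 26.1 CPM and H2-T22 from 43.7 to 66.5 CPM. 5 members lie within 197 kb of chromosome 17, where 18 genes are annotated and 11 were tested. In that interval Psmb9, Tap1, Psmb8 and Tap2 had r of 0.909, 0.848, 0.889 and 0.764 with the members, whereas Brd2 had -0.138.

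Markers of cells that make class II constitutively were low. Of 27 macrophage and dendritic cell markers, 17 were under 1 CPM in every library and 8 were at 0 in at least 1 library. Itgax, an integrin of dendritic cells, was at 1.18, 0.738, 0.334 and 1.69 CPM in WT and 0.843, 0.664, 0.863 and 0.688 in Degs2_KO. Csf1r, the receptor for a macrophage growth factor, was at 0.072 to 1.19 CPM, highest in WT replicate 4. The summed list was 107 to 146 CPM in WT and 107 to 118 in Degs2_KO. Of 15 tested, 4 were higher and 11 lower in mean Degs2_KO, and 0 had an r above 0.7 with the members.

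B cell markers were lower still, with 13 of 14 under 1 CPM in every library and 9 at 0 in some. Cd79a, part of the B cell receptor complex, reached at most 0.430 CPM, in WT replicate 4. The summed list was 5.23 to 9.78 CPM in WT and 6.93 to 9.54 in Degs2_KO, and 83.0% of it was Spib, which epithelial cells also express. Plasma cell markers summed to 2.01 to 9.62 CPM in WT and 1.87 to 2.99 in Degs2_KO, with the high value in WT replicate 4. Fibroblast markers summed to 10.4 to 47.0 CPM in WT and 4.29 to 24.3 in Degs2_KO, also highest in WT replicate 4. WT replicate 4 was the WT library with the highest Cd74. The part of these cells in the class II levels was not tested.

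T cell markers moved with the members to a degree. Their sum was 52.0, 16.3, 7.07 and 29.5 CPM in WT and 25.0, 20.1, 43.5 and 13.6 in Degs2_KO. WT replicate 1 was highest in T cell markers yet middling in class II genes. Cd3e, part of the T cell receptor complex, ran from 0.501 to 3.85 CPM and Ptprc, the common leukocyte antigen, from 5.52 to 16.2 CPM, both highest in WT replicate 1. Of 18 T cell genes tested, 8 were higher and 10 lower in mean Degs2_KO, 0 passed, and 5 had an r above 0.7 with the members. Their part in the class II levels was not tested.

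Each member was correlated with 7 marker sums over the 8 libraries, 49 relations in all, with exact permutation p-values (two-sided, all pairings) and Benjamini-Hochberg adjustment. The members and lists were chosen with earlier results of these data known, and the members are nearly 1 pattern (median r of 0.968 between them), so these p-values are no independent support and members past the threshold are not separate results. With interferon-gamma targets, r was 0.786 to 0.915, and 5 of 7 members had an adjusted permutation p under 0.05. Ciita had r = 0.915 (exact permutation p = 0.00117, adjusted p = 0.0389) and Cd74 r = 0.895 (exact permutation p = 0.00303, adjusted p = 0.0453), with rho 0.833 for Cd74. No rho passed, the smallest adjusted p being 0.188. Without WT replicate 3 and Degs2_KO replicate 4, the libraries farthest from the median of the sum, r was 0.797 to 0.886. Leaving out WT replicate 1, 3 or 4, or Degs2_KO replicate 1 or 2, left 0 of the 49 relations past the threshold, and leaving out Degs2_KO replicate 3 left 1.

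The remaining sums had no relation past the threshold. T cell markers had r of 0.555 to 0.699 (adjusted permutation p 0.334 to 0.416), and 0.713 to 0.781 without WT replicates 1 and 3. Macrophage and dendritic cell markers had r of -0.336 to 0.0188. For Cd74 that r was -0.153, or -0.651 without WT replicate 4 and -0.00055 without Degs2_KO replicate 3. Without 3 genes that made 91.0% of the sum, a list trimmed after its values were seen, Cd74 had r = 0.192, and -0.028 when WT replicate 4 was left out as well. Leukocyte markers had r of 0.310 to 0.477. For Cd74 that r was 0.430, and it depended on single libraries: it was 0.0831 without WT replicate 3 and 0.721 without WT replicate 1 (exact permutation p = 0.0470, adjusted p = 0.154). Without Lcp1, which made 48.9% of the leukocyte sum, it was 0.671, again a list trimmed after its values were seen. B cell markers had r of 0.480 to 0.639, and -0.275 to -0.0609 without WT replicates 2 and 3. Innate lymphoid markers had 0.331 to 0.517. Plasma cell markers had 0.0234 to 0.354. A p that misses the threshold does not show that a relation is absent.

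**Figure D3:**
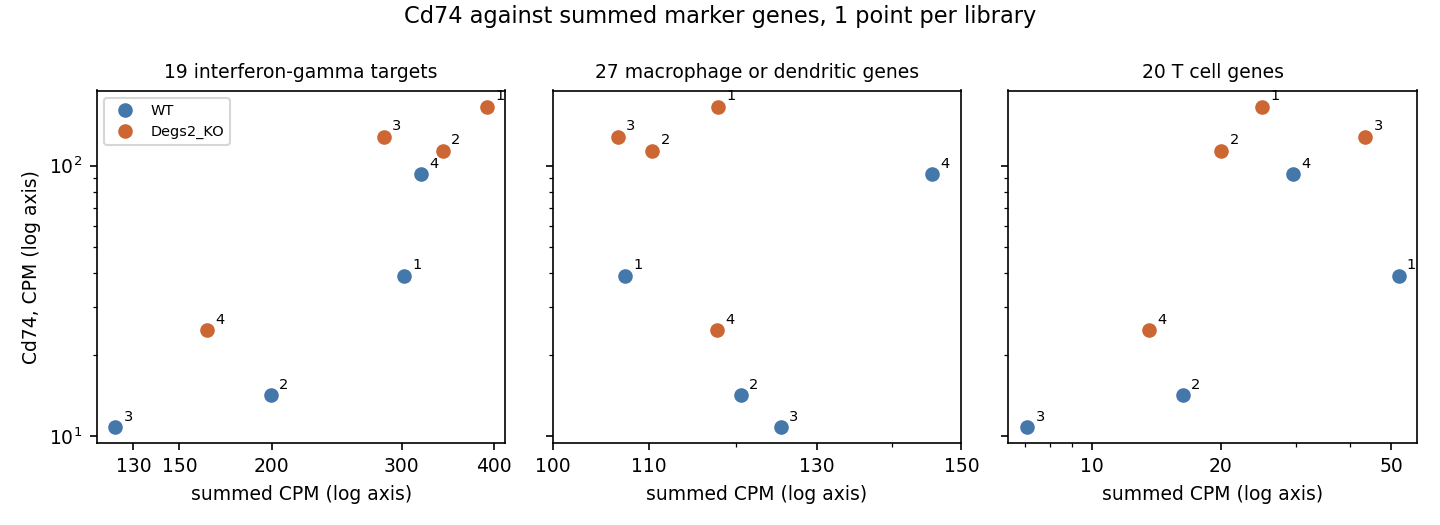
CPM of Cd74 against the summed CPM of 19 interferon-gamma targets, 27 macrophage and dendritic cell genes and 20 T cell genes, both on log axes, with 1 point per library, its replicate number beside it and genotype by colour. Cd74 rises with the interferon-gamma targets (r = 0.895). Its r with macrophage and dendritic cell markers is -0.153, which did not pass the threshold, and it was 0.190 after centring within each genotype.

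Epithelial and crypt markers gave a further view of the tissue. Of 10 epithelial markers 7 were higher and 3 lower in mean Degs2_KO (median log2 difference 0.03), and 3 had an r above 0.7 with the members. Of 10 crypt base stem cell markers, 0 had an r above 0.7, and r ran from -0.752 to 0.404 (median -0.275). Some thus ran strongly opposite to the members, among them Lrig1 at -0.734. Lgr5, a stem cell receptor, was lowest in Degs2_KO replicate 1, at 7.85 CPM, and highest in WT replicate 3. Of 12 surface colonocyte markers, 3 were higher and 9 lower, and Car1, a carbonic anhydrase of surface cells, ran from 522 to 6570 CPM, highest in WT replicate 1 and Degs2_KO replicate 3. The part of these surface markers in the class II levels was not tested.

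The dependence on single libraries was checked for each member by leaving out every library in turn. All 7 log2 differences stayed above 0 in all 19 alternative settings. The settings reuse the same libraries and the members were chosen with this contrast known, so the shared sign is a description and no independent support. The range over settings was 0.80 to 1.55 for Ciita, 1.14 to 2.33 for Cd74, 0.74 to 2.16 for H2-Aa, 0.80 to 1.81 for H2-Ab1, 1.15 to 1.93 for H2-Eb1, 0.81 to 1.31 for H2-DMa and 0.91 to 1.49 for H2-DMb1. The lowest values for Ciita and H2-Aa came without Degs2_KO replicate 1, and the highest for Cd74, H2-Aa and H2-Ab1 without WT replicate 4.

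**Figure D4:**
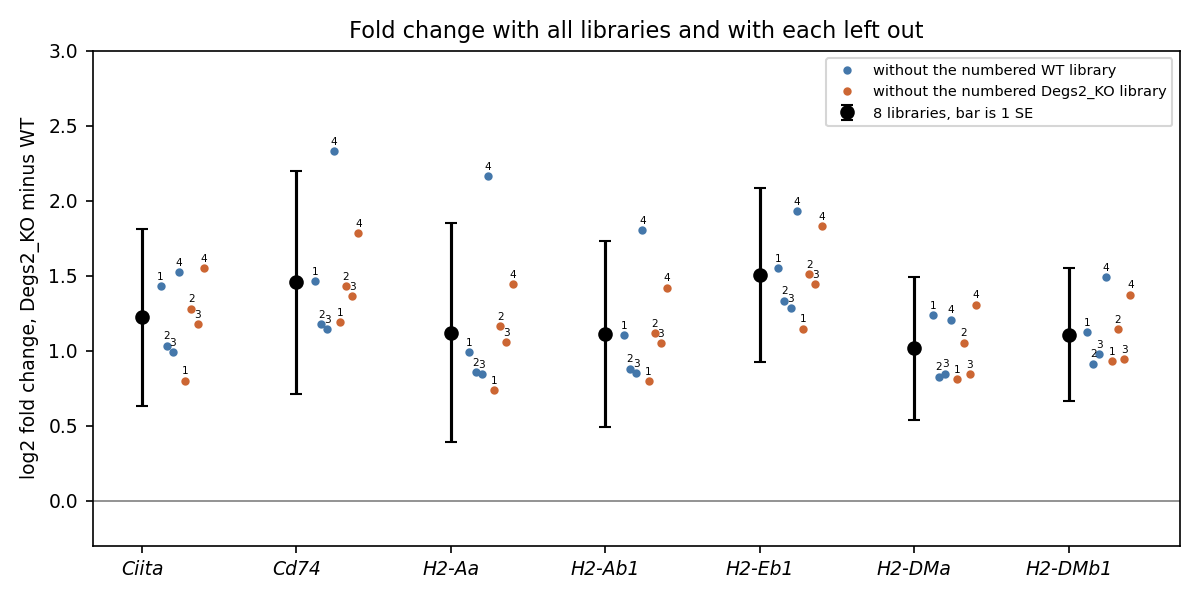
Log2 difference of each member, Degs2_KO minus WT, with all 8 libraries (black, bar is 1 SE) and with each numbered library left out in turn (coloured by its genotype). Every value lies above 0, from 0.74 for H2-Aa without Degs2_KO replicate 1 to 2.33 for Cd74 without WT replicate 4. The values reuse the same libraries, and the members were chosen with this contrast known.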

How the data were processed

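RNA-seq libraries of distal colon epithelium were compared, 4 WT and 4 Degs2_KO. Per the submitters' processing notes, the authors listed TopHat2 2.0.10 and cutadapt 1.9, Cuffdiff and Cufflinks 2.1.1, and the build mm10. The deposited values are estimated counts per gene. From the values, 96.9% to 97.2% of those up to 100 were whole multiples (tolerance 0.02) of a step of 0.871 to 1.31 that differed by library, so the columns are read as scaled to a common depth. No source used here states the annotation or whether strand was used. Values with a failed estimate (119 values in 47 genes) were left out, and all members had valid estimates. Estimated counts were rounded, filtered with filterByExpr (minimum count 10) and scaled by TMM. The deposited scaling brings library totals close together, so the depths used by the model are not the sequenced depths. Genotypes were compared with edgeR 4.0.16's quasi-likelihood test (R 4.3.3) and Benjamini-Hochberg adjustment over all 16132 genes, with DESeq2 1.42.0 and limma 3.58.1 as alternatives, and the script was tested on simulated data. Log2 CPM used a prior count of 2. Correlations were tested with exact permutations. Coordinates and exon lengths came from the GENCODE M21 annotation of GRCm38, the same assembly as mm10, and promoters from RefSeq.

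The 7 members and the 18 lists of other genes were chosen with earlier results of these data known. From each list the text could name the 3 genes with the highest mean CPM, the 2 with the smallest unadjusted p, a fixed set of regulators and markers, and the 10 genes most correlated with the members among those with a mean log2 CPM of at least 1. Genes outside that rule (Csf1r, Nfyc, Tap1, Tap2, Dexi, Brd2, Dlk1, H2-Ea-ps, Cd80, Cd86, Cd40 and Pdcd1lg2) were named after their values were seen. Some genes within the rule are not reported here.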

Additional observations from a re-analysis of the deposited data

Results flagged for a closer look

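Of the 14 groups examined (7 members in 2 genotypes of 4 libraries), 1 held a library far from the others. H2-Aa was at 24.8 CPM in WT replicate 4, and its gap to the nearest WT library was 0.852 of the range of the group, above Dixon's critical value for 4 samples. Chance places about 1 in 20 groups past that value. The same library also held the highest WT value of 5 other members.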

How the results depend on the processing

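With DESeq2, 2 genes passed the adjusted threshold, Degs2 (adjusted p = 6.96e-07) and Dlk1 (adjusted p = 0.0161), against 0 with edgeR's quasi-likelihood test. The replicate block gave 0 calls (99 genes at an unadjusted p under 0.05, against 183 without it). Same-numbered libraries did not all deviate together over all genes (correlations of -0.425, 0.444, -0.560 and -0.102), so a pairing by number was not seen. Such a pairing is not excluded, because larger differences between libraries can hide it in these correlations. The correlation of Cd74 with interferon-gamma targets lay between 0.844 and 0.933 when 1 library was left out and was 0.950 (adjusted exact permutation p = 0.166) with WT replicate 1 and Degs2_KO replicate 3 both left out. The number of relations past the threshold was 5 in all, 0 to 5 with 1 library left out and 0 with those libraries both left out, where fewer libraries also raise the smallest p possible. The correlation of Cd74 with macrophage and dendritic cell markers turned positive, 0.190, after centring within each genotype, and the cause was not tested. All member differences and the median correlation between members kept their direction, over settings that reuse the same libraries. With 4 libraries a genotype and no call among members, the size of each difference is known only roughly, and its SE does not bound it. Low genes such as Ciita, at 37.0 scaled counts in its lowest library, carry more counting error.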

Other observations

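The library identifiers that adjoin each other across genotypes give a further description, with the meaning of the numbers not given in the sources used here. Set against WT replicates 1, 2 and 3, Degs2_KO replicates 1, 3 and 4 were higher in 3 of 3 pairs for each of the 7 members. The share of all genes higher in 3 of 3 pairs was not computed. The members are nearly 1 pattern and were chosen with this contrast known, so the count is a description only. Cd74 was 4.21-fold, 9.02-fold and 2.28-fold higher, and H2-DMa 2.02-fold, 4.68-fold and 1.07-fold higher. With that block, chosen with the sample numbers in view and without WT replicate 4 and Degs2_KO replicate 2, the log2 differences of the 7 members ran from 1.11 ± 0.47 (SE) for H2-DMa to 2.15 ± 0.41 for Cd74. The block thus left out WT replicate 4, the highest WT library for 6 members. With all 8 libraries and no block, the difference of Cd74 was 1.46 ± 0.75 (SE). The adjoining pairs did not all deviate together over all genes (correlations of -0.425, -0.530 and 0.205), so a pairing by adjoining numbers was not seen either, and it is not excluded. With the block 0 genes passed edgeR's adjusted threshold and 79 had an unadjusted p under 0.05.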
